A study of Mus musculus with 8 samples.

Results

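The genes of glucose handling in the mouse heart were followed here across 4 genotypes that differ in the nuclear receptors ERRα and ERRγ. The set holds 34 genes, listed by name for their place in glucose uptake, glycolysis, glycogen and lactate metabolism, and all 34 were found among the 18656 genes of the tables. Hearts were taken at 16 days of age from C57BL/6 mice. The αKOγKO mice lacked ERRα in the whole body and carried ERRγ flox/flox alleles with Myh6-Cre, a recombinase made in cardiomyocytes, so that ERRγ was to be removed in cardiomyocytes only. The littermates were αHetγKO (1 ERRα copy, cardiac ERRγ loss), αKOγWT (no ERRα, ERRγ intact) and αHetγWT, which served as control and itself had only 1 ERRα copy. The Cre status of the γWT mice is not given in the sources used here, so an effect of Cre itself cannot be told apart from ERRγ loss. The study uses αKOγKO mice as a model of cardiomyopathy in young animals, and effects of a failing heart and of the lost receptors cannot be told apart.

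Each genotype had 2 libraries, and each library held pooled RNA of several hearts (3 by the study's methods). Totals were 28.2 M to 36.8 M uniquely assigned reads (M, mega). Levels are given as RPKM, which are reads scaled by gene length and by the library's total of assigned reads, so genes of different length can be compared. Fold changes are edgeR log2 values with their standard error (SE), and a call means a Benjamini-Hochberg adjusted p under 0.05 over all 15076 tested genes. The p-values measure the spread between pools, not between single animals. The 3 comparisons with αHetγWT share its 2 libraries.

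As background, a heart burns mainly glucose and lactate before birth and moves to fatty acids in the weeks after birth. ERRα and ERRγ are transcription factors that switch on mitochondrial and fatty acid oxidation genes during that move. Most steps of glucose use are carried by several genes with different homes: forms of adult heart or muscle, such as the insulin-responsive transporter GLUT4 (Slc2a4), muscle phosphofructokinase (Pfkm) and muscle glycogen phosphorylase (Pygm), and forms of fetal or many other tissues, such as GLUT1 (Slc2a1), Pfkp and Pygb. Lactate dehydrogenase of heart is built mainly from the B subunit (Ldhb), which favours lactate use, while the A subunit (Ldha) dominates in glycolytic tissue. Glycolytic cells also carry the lactate exporter MCT4 (Slc16a3), while heart relies on MCT1 (Slc16a1).

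Taken as one set, the genes held a near constant share of all reads. Within that share the forms differed, and so did the summed level of several steps, as given below. The 34 genes took 1.84% and 1.81% of all reads in αKOγKO libraries, 1.88% and 1.85% in αHetγKO and 1.96% and 2.01% in αKOγWT, against 1.78% and 1.81% in αHetγWT. Against αHetγWT, αKOγKO hearts had 10 members higher, 9 lower and 15 that did not pass. That is 55.9% of members called, against 42.2% of all tested genes (20.7% higher and 21.5% lower). The median log2 fold change was -0.01 over the members and 0.01 over all genes. Loss of ERRγ with 1 ERRα copy left (αHetγKO) gave no call, and loss of the last ERRα copy with ERRγ intact (αKOγWT) gave 5. Each heart library strongly expressed cardiomyocyte genes, and skeletal muscle markers summed to only 13.8 to 29.0 RPKM, with Myh4 and Myod1 not listed.

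**Figure D1:**
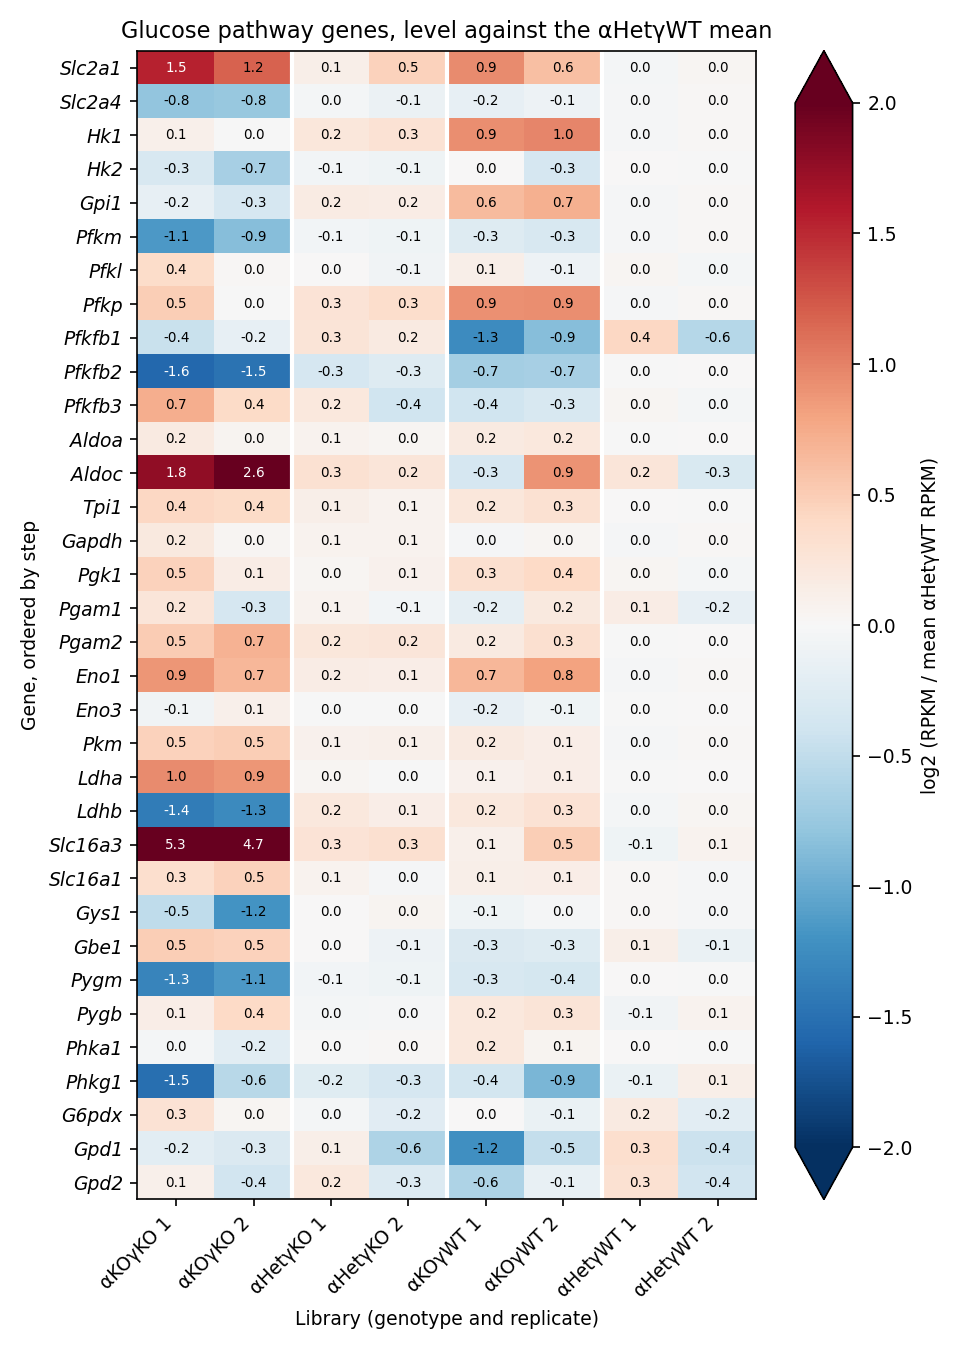
Level of each of the 34 genes in each library, as the log2 ratio of its RPKM to the mean of both αHetγWT libraries. Rows are genes ordered by step, columns are libraries grouped by genotype, and each cell prints its value. Colour saturates at 2 and -2. Both αKOγKO columns are deep red for Slc16a3 and Aldoc and blue for Pfkfb2, Ldhb and Pygm, and both αKOγWT columns are red for Hk1, Gpi1, Pfkp and Eno1.

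The promoters of the genes at the lactate end and of Pfkfb2 are printed because these genes had some of the largest differences. The windows are the 250 bases before the annotated RefSeq start on GRCm38.p6, 5′ to 3′ on the gene's own strand. Capitals mark ACGTG, the core of the site bound by hypoxia-inducible factors, on either strand, and in Ldhb they mark AGGTCA, the nuclear receptor half-site, also on either strand. CACGTG, the E-box, reads the same on both strands and holds 2 overlapping ACGTG matches.
Slc16a3 promoter, chr11:120948817-120949066 (+ strand): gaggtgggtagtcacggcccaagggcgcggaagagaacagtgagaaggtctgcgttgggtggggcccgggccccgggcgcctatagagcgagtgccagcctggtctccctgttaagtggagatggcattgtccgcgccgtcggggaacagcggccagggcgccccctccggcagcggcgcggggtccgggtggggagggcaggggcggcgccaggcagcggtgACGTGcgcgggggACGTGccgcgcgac
Ldha promoter, chr7:46845554-46845803 (+ strand): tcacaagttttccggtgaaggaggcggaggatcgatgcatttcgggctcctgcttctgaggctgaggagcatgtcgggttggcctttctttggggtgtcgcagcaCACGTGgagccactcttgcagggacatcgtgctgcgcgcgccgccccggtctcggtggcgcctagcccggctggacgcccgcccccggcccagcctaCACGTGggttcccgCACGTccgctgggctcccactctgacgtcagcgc
Ldhb promoter, chr6:142507958-142508207 (- strand): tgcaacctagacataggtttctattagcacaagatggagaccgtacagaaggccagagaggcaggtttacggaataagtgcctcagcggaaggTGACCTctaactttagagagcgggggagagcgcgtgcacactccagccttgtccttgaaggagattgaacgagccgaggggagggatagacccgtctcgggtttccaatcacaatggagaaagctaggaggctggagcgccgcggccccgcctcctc
Pfkfb2 promoter, chr1:130715822-130716071 (- strand): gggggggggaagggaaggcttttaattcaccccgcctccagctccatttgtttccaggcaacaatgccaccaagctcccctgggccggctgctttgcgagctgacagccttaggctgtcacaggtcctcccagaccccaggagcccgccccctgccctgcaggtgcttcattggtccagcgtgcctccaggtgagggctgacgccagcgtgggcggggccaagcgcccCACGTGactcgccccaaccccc
The printed Ldha window held 5 ACGTG matches in 3 places, 2 of these places being CACGTG, and the window of a second annotated Ldha start held 0. Ldha and Pfkfb2 had several windows, and for each the window with the most matches was printed. Of all 32851 promoter windows of the reference, counted singly, 0.134% hold 5 or more. That rate does not allow for the choice of window. The Slc16a3 window held 2 matches, and 6.81% of all windows hold 2 or more. In the printed Pfkfb2 window both matches belong to 1 CACGTG, and its other 2 windows held 1 and 0. Of the members, 32 had windows (50 in all, since some genes have several starts; Slc2a4 and Gpd1 had none). ACGTG was found in 38.0% of the members' windows and in 16.6% of all windows, and CACGTG in 5 of the 50 and in 6.02% of all. The ERR response element TCAAGGTCA was in 0 of 50 members' windows and in 0.387% of all, and its core AAGGTCA in 4.0% and 4.08%. The half-site AGGTCA, marked in Ldhb, was in 16% of members' windows and in 14.0% of all. A match is a description of letters in a short window, and windows of 1 gene can overlap.

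At the lactate end, Slc16a3 stood out. It measured 54.0 and 35.8 RPKM in αKOγKO hearts, 1.65 and 1.71 in αHetγKO and 1.47 and 1.93 in αKOγWT, against 1.29 and 1.45 in αHetγWT. Both double-loss libraries lay far above the other 6. Among those, αHetγKO and αKOγWT overlapped, and both αHetγWT libraries were slightly lower. The log2 fold change over αHetγWT was 4.91 ± 0.24 (adjusted p = 2.02e-06), about 30.1-fold. Slc16a1, the transporter that heart normally uses, was higher by less, at 76.2 and 83.4 RPKM in αKOγKO against 61.5 and 59.2 in αHetγWT (0.28 ± 0.07), a call that did not hold when αHetγWT replicate 1 (adjusted p = 0.0603) or 2 (adjusted p = 0.0823) was left out. Slc16a3 thus made up 41.5% and 30.1% of the RPKM of the pair in αKOγKO hearts, against 2.1% to 2.8% in the other libraries. The summed level of both transporters was 130 and 119 RPKM, against 60.6 to 68.0 elsewhere.

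Slc16a3 is also known from macrophages and other glycolytic cells. The 8 macrophage markers summed to 241 and 143 RPKM in αKOγKO libraries and to 115 to 169 RPKM in the other 6, and αKOγKO replicate 2 lay inside that range. Of these 8 markers 2 were called higher. Fibroblast markers summed to 2673 and 1784 RPKM in αKOγKO against 1112 to 1417 in the other libraries, smooth muscle and pericyte markers to 2845 and 2228 against 702 to 1358 (2 of 5 higher, 2 lower), cardiomyocyte markers to 35880 and 42027 against 49242 to 54987, and endothelial markers to 473 and 507 against 655 to 737. By count, 5 of 8 fibroblast markers were higher, and 6 of 11 cardiomyocyte and 6 of 9 endothelial markers were lower. Of all tested genes 20.7% were higher and 21.5% lower. The 6 immediate-early genes, which respond within minutes to stress and tissue handling, summed to 62.7 and 664 RPKM in αKOγKO against 36.5 to 47.9 elsewhere, so αKOγKO replicate 2 stood apart in them. The fibroblast, smooth muscle and pericyte, cardiomyocyte and endothelial sums of both αKOγKO libraries lay outside the range of the other 6, and their part in the αKOγKO differences was not tested. In such bulk libraries fewer cells of a type and less RNA per cell cannot be told apart.

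The lactate dehydrogenase genes moved in opposite directions. Ldha, which turns pyruvate into lactate, measured 899 and 861 RPKM in αKOγKO hearts, 478 and 461 in αHetγKO and 496 and 509 in αKOγWT, against 461 and 470 in αHetγWT (0.80 ± 0.07, adjusted p = 5.37e-05). Ldhb measured 475 and 517 RPKM in αKOγKO, 1434 and 1371 in αHetγKO and 1445 and 1514 in αKOγWT, against 1212 and 1278 in αHetγWT (-1.45 ± 0.08, adjusted p = 3.2e-06). For both genes the αKOγKO libraries did not overlap the others, and only there did Ldha exceed Ldhb. Ldha was 65.4% and 62.5% of the Ldha and Ldhb sum in αKOγKO, against at most 27.5% in the other 6. The sum itself was lower in αKOγKO hearts, at 1374 and 1378 RPKM against 1673 to 2023. Both lactate dehydrogenase calls, and that of Slc16a3, held under every alternative tried.

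**Figure D2:**
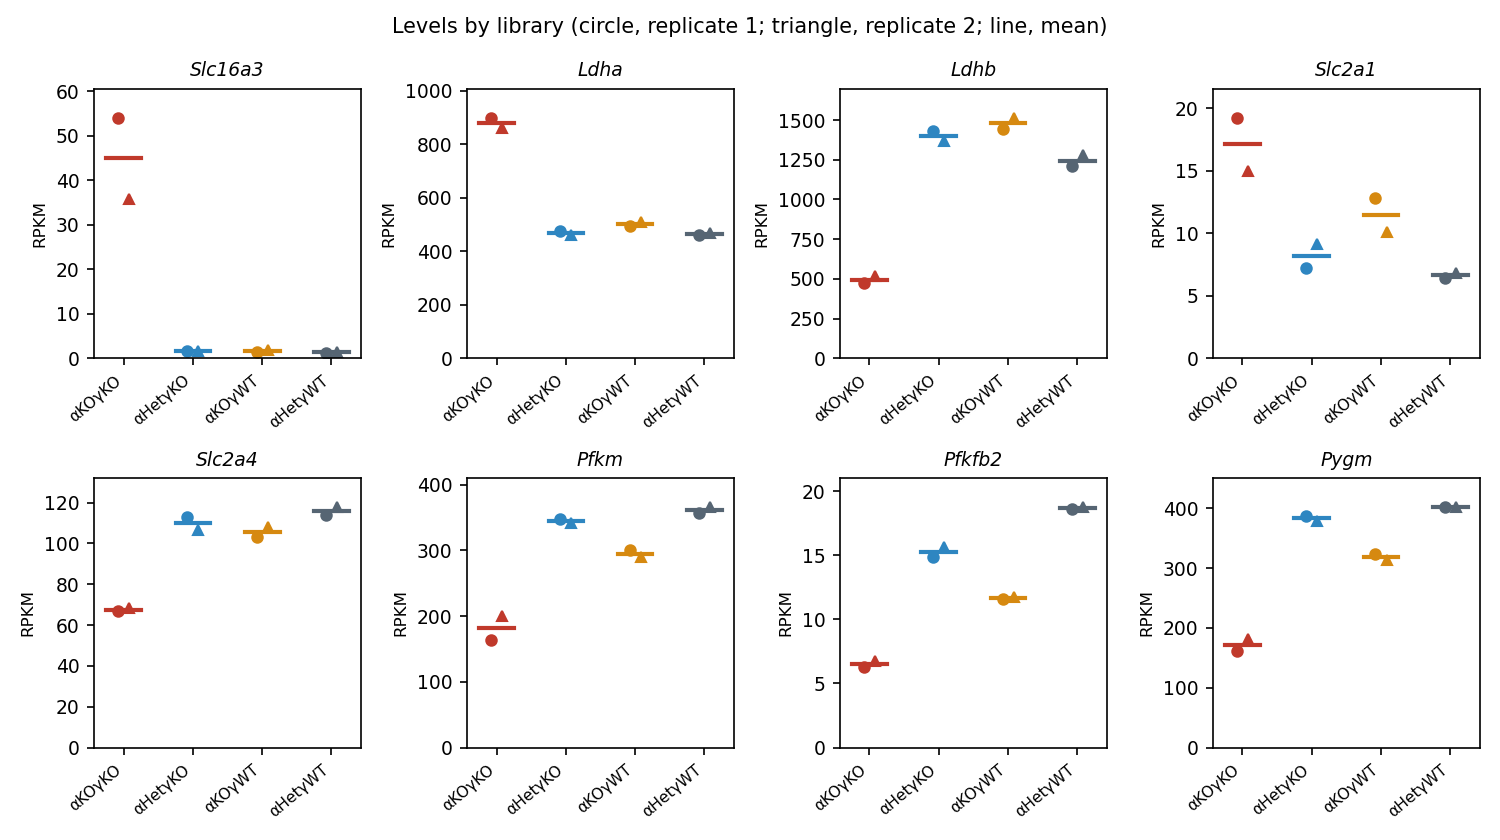
RPKM of 8 genes by library, with αKOγKO at the left and αHetγWT at the right of each panel. Circles are replicate 1, triangles replicate 2 and lines the mean of 2 libraries, and each axis starts at 0. In all 8 panels the αKOγKO libraries lie outside the range of the other 6: above it for Slc16a3, Ldha and Slc2a1, below it for Ldhb, Slc2a4, Pfkm, Pfkfb2 and Pygm. In αKOγWT, Slc2a1 lies above αHetγWT and Pfkm, Pfkfb2 and Pygm lie below it.

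At glucose entry the transporters also moved apart. Slc2a1, the basal and fetal transporter, measured 19.2 and 14.98 RPKM in αKOγKO hearts, 7.19 and 9.10 in αHetγKO and 12.8 and 10.1 in αKOγWT, against 6.44 and 6.84 in αHetγWT (1.24 ± 0.17, adjusted p = 0.000506). Slc2a4, the insulin-responsive transporter of adult muscle and fat, measured 66.9 and 68.2 RPKM in αKOγKO, 113 and 107 in αHetγKO and 103 and 108 in αKOγWT, against 114 and 118 in αHetγWT (-0.90 ± 0.07, adjusted p = 2.49e-05). Slc2a4 was the more abundant in every library, and it was 77.7% and 82.0% of their summed RPKM in αKOγKO against 89.0% to 94.6% elsewhere. The sum of both was lower in αKOγKO, at 86.1 and 83.2 RPKM against 116 to 125. Of 10 other tested genes of glucose transport, 2 were higher in αKOγKO and 2 lower, 40% against 42.2% of all tested genes. Slc2a12, another insulin-responsive transporter of heart and muscle, was at 0.35 and 0.47 RPKM in αKOγKO against 1.72 and 1.41 in αHetγWT (-2.05 ± 0.20), and Tbc1d1, a GTPase regulator of GLUT4 traffic, was higher (0.83 ± 0.10), as was Slc2a10 (0.92 ± 0.17). The related Tbc1d4 was lower by a small amount (-0.34 ± 0.09), a call lost with limma, without αKOγKO replicate 1 or αHetγWT replicate 1, and with the αKOγKO and αHetγWT libraries alone.

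Hexokinase traps glucose in the cell. Hk2, the insulin-induced form of muscle, measured 43.1 and 34.1 RPKM in αKOγKO hearts against 54.4 and 53.3 in αHetγWT (-0.60 ± 0.13, adjusted p = 0.00674). It was at 51.9 and 50.9 RPKM in αHetγKO and 54.2 and 42.5 in αKOγWT, so αKOγKO and αKOγWT overlapped in RPKM. Hk1, the form of most tissues, did not pass in αKOγKO (79.6 and 73.8 RPKM against 73.2 and 75.6, -0.08 ± 0.07). Measured against the mean of the 3 other genotypes Hk1 was lower (-0.48, adjusted p = 0.00028), since that mean holds the high αKOγWT libraries described below. Gpi1, which turns glucose phosphate into fructose phosphate, was at 284 and 251 RPKM in αKOγKO against 313 and 325 in αHetγWT (-0.37 ± 0.08, adjusted p = 0.00739), a call that needed αHetγWT replicate 2 (adjusted p = 0.058 without it).

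Phosphofructokinase is the committed step of glycolysis, and its muscle subunit fell. Pfkm measured 163 and 200 RPKM in αKOγKO hearts, 347 and 342 in αHetγKO and 301 and 289 in αKOγWT, against 357 and 366 in αHetγWT (-1.12 ± 0.09, adjusted p = 2.79e-05). The liver-type subunit Pfkl (57.6 and 45.7 RPKM in αKOγKO against 46.3 and 43.6 in αHetγWT) and the platelet-type subunit Pfkp (58.7 and 41.3 against 41.0 and 42.4) did not pass. The 3 subunits together measured 280 and 287 RPKM in αKOγKO and 410 to 452 in the other libraries. Pfkm was 58.4% and 69.6% of that sum in αKOγKO, against 80.4% and 81.0% in αHetγWT. Pfkp was called when αKOγKO replicate 2 was left out (0.37, adjusted p = 0.00193), so its value in the double loss rests on which library is read.

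Pfkfb2 makes the fructose bisphosphate that activates phosphofructokinase, and it is the heart form of that enzyme. It measured 6.26 and 6.72 RPKM in αKOγKO, 14.9 and 15.7 in αHetγKO and 11.6 and 11.8 in αKOγWT, against 18.6 and 18.8 in αHetγWT (-1.65 ± 0.07, adjusted p = 1.38e-06). The 4 genotypes did not overlap, and the order was αKOγKO, αKOγWT, αHetγKO, αHetγWT from low to high. Pfkfb3, the inducible form, was at 6.53 and 5.14 RPKM in αKOγKO against 4.07 and 3.83 in αHetγWT, and did not pass (0.44 ± 0.20, adjusted p = 0.109). It was called without either αHetγKO library, without αKOγKO replicate 2 and against the mean of the 3 other genotypes. Pfkfb2 was 44.0% and 49.4% of the summed RPKM of Pfkfb1, Pfkfb2 and Pfkfb3 in αKOγKO, against 68.2% to 78.5% elsewhere.

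In the later steps of glycolysis most differences were small. Pkm (977 and 1001 RPKM in αKOγKO against 700 and 723 in αHetγWT, 0.35 ± 0.07), which makes pyruvate, and Pgam2 (781 and 886 against 546 and 549, 0.48 ± 0.08), the muscle phosphoglycerate mutase, were higher. Tpi1 was also higher (567 and 557 against 427 and 424, 0.28 ± 0.07). That call did not hold without αHetγWT replicate 1 (0.27) or 2 (0.28). In αKOγWT Tpi1 measured 495 and 524 RPKM, with a fold change of similar size that did not pass (0.27 ± 0.07, adjusted p = 0.142). In TMM-scaled reads the αKOγKO and αKOγWT libraries overlapped for Tpi1. Eno1, the enolase of most tissues, measured 169 and 146 RPKM in αKOγKO, 102 and 101 in αHetγKO and 146 and 159 in αKOγWT, against 89.5 and 93.4 in αHetγWT (0.66 ± 0.10, adjusted p = 0.000731). For Eno1 the αKOγKO and αKOγWT libraries overlapped, and both genotypes lay above the others.

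Some of these genes have close copies in the mouse genome, and reads that fit a copy equally well may not have been assigned to the gene. Eno1b, a copy of Eno1 with its own entry in the tables, had 398 and 286 reads in αKOγKO, 158 and 228 in αHetγKO and 282 and 292 in αKOγWT, against 178 and 144 in αHetγWT, the same pattern at a small share of the reads. Levels of Eno1, Gapdh, Ldha, Pkm and other genes with copies carry that uncertainty.

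Aldoc, aldolase C of brain, was called higher (2.14 ± 0.51, adjusted p = 0.00962) at very low level, 0.814 and 1.49 RPKM in αKOγKO against 0.282 and 0.193 in αHetγWT, while Aldoa, aldolase A of muscle, at 1872 and 1708 RPKM against 1634 and 1667, did not pass. The Aldoc call was lost without αKOγKO replicate 2 (1.65, adjusted p = 0.0565) or αHetγWT replicate 2 (1.90, adjusted p = 0.0756). Gapdh (1079 and 976 RPKM against 933 and 959), Pgk1 (521 and 419 against 390 and 366), Pgam1 (70.8 and 47.2 against 66.0 and 53.6) and Eno3, the muscle enolase (938 and 1058 against 983 and 992), did not pass. Of these, Pgam1 was called lower without αKOγKO replicate 1 (-0.48, adjusted p = 0.0419), and Pgk1 higher without αKOγKO replicate 2 (0.34, adjusted p = 0.00359) and with limma (0.31, adjusted p = 0.0412). Gapdh, often used as a reference transcript, had a log2 fold change of -0.00 ± 0.08.

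Among the glycogen genes the muscle forms Pygm, Gys1 and Phkg1 were lower, and Phka1 did not pass. Pygm, muscle glycogen phosphorylase, measured 161 and 182 RPKM in αKOγKO, 388 and 378 in αHetγKO and 323 and 314 in αKOγWT, against 402 and 402 in αHetγWT (-1.35 ± 0.07, adjusted p = 3.27e-06). Pygb, the brain form that heart also carries, did not pass, at 261 and 315 RPKM in αKOγKO against 226 and 250 in αHetγWT. Pygb was thus 61.9% and 63.4% of the phosphorylase sum in αKOγKO, against 35.9% to 47.5% in the other libraries, and αKOγKO hearts were the only ones in which it exceeded Pygm. Gys1, muscle glycogen synthase, was at 28.6 and 17.8 RPKM in αKOγKO against 41.5 and 40.1 in αHetγWT (-0.94 ± 0.19, adjusted p = 0.00383), with a wide gap between its αKOγKO libraries.

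Phkg1, the catalytic subunit of muscle phosphorylase kinase, measured 6.05 and 11.7 RPKM in αKOγKO, 14.6 and 13.7 in αHetγKO and 13.4 and 9.13 in αKOγWT, against 15.8 and 18.7 in αHetγWT (-1.09 ± 0.27, adjusted p = 0.012). Its αKOγKO libraries overlapped αKOγWT, and it did not pass when αHetγWT replicate 2 was omitted (adjusted p = 0.0807). Phka1, the regulatory subunit of muscle, missed the threshold (8.45 and 7.51 RPKM against 8.70 and 8.66, -0.24 ± 0.09, adjusted p = 0.0525). It was called with the replicate number as a block (adjusted p = 0.0487), without αKOγKO replicate 1 (-0.34, adjusted p = 0.00959) and against the mean of the 3 other genotypes (-0.29, adjusted p = 0.0109). Gbe1, the branching enzyme, was higher, at 26.5 and 26.1 RPKM against 20.5 and 17.3 (0.35 ± 0.09, adjusted p = 0.0153), though not with αHetγWT replicate 2 omitted (adjusted p = 0.116).

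In 20 other tested glycogen genes, 7 were higher and 4 lower in αKOγKO, 55% against 42.2% of all tested genes. Gyg, the primer protein on which glycogen is built, was at 252 and 244 RPKM against 88.7 and 86.0 in αHetγWT (1.38 ± 0.08), and Gaa, the lysosomal glycogen-degrading enzyme, at 84.2 and 80.1 against 32.9 and 34.6 (1.16 ± 0.07). Ppp1r3a, the muscle subunit that targets a phosphatase to glycogen, was lower (-1.11 ± 0.14). So within glycogen metabolism the primer and lysosomal genes were higher while muscle synthase and phosphorylase were lower.

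**Figure D3:**
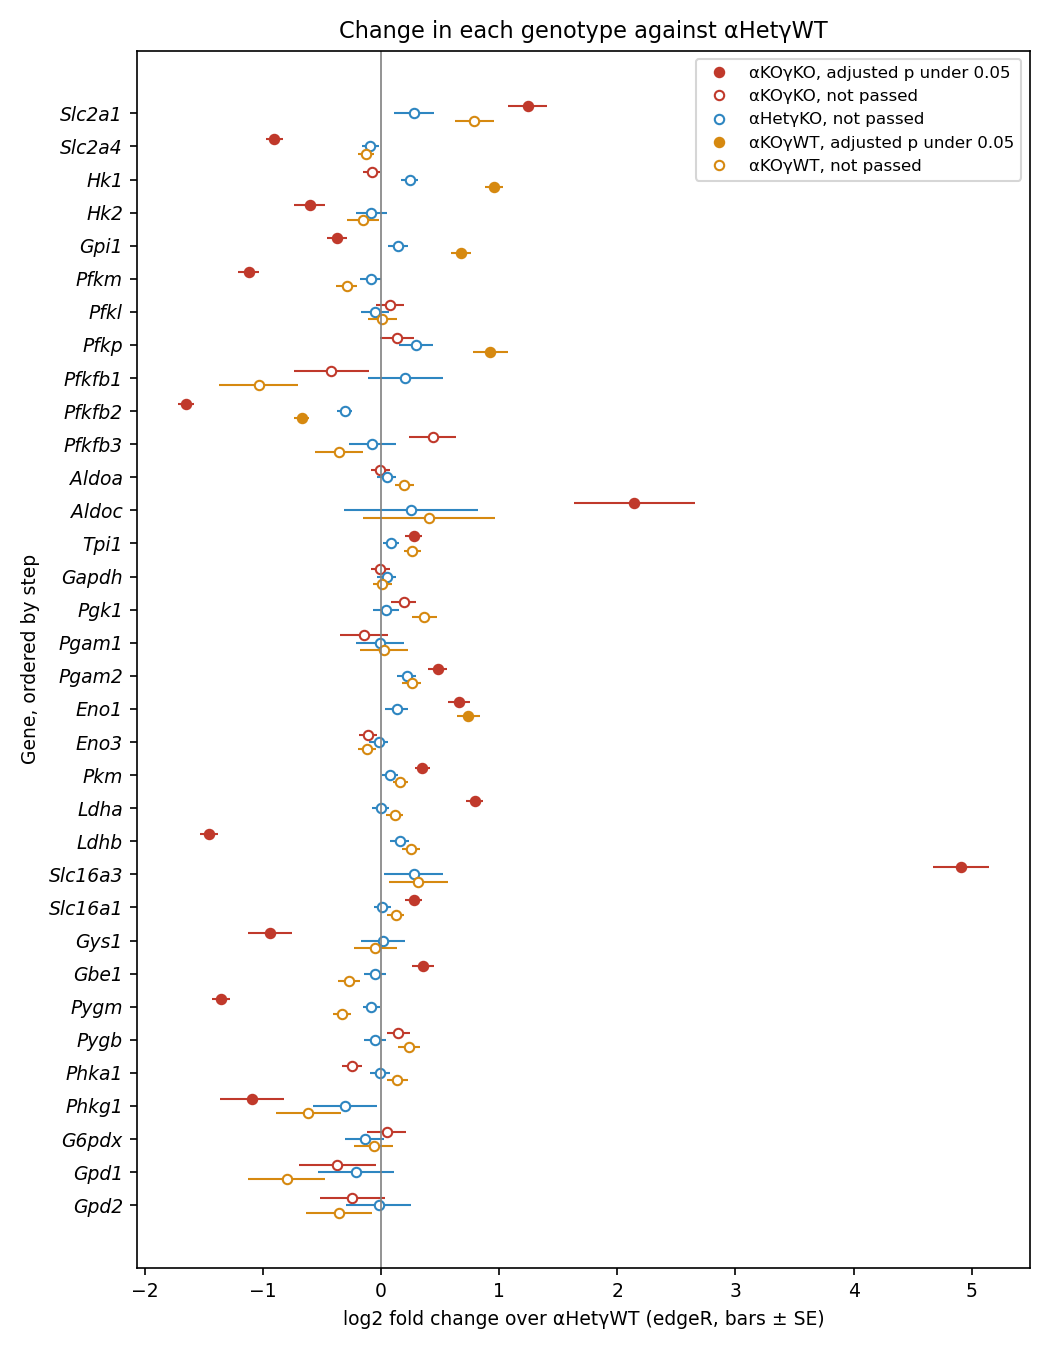
edgeR log2 fold change of each gene over αHetγWT in αKOγKO (red), αHetγKO (blue) and αKOγWT (orange), with bars of 1 SE. Filled points passed an adjusted p of 0.05 and open points did not. Red filled points lie on both sides of 0, no blue point is filled, and orange filled points are Hk1, Gpi1, Pfkp and Eno1 to the right and Pfkfb2 to the left.

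Loss of ERRγ with 1 ERRα copy left the glucose genes near the control level. In αHetγKO against αHetγWT no member passed in edgeR or in the DESeq2 Wald test, and 0.00663% of all genes did (1 gene). At an unadjusted p under 0.05 there were 3 members and 748 of all genes. Those members were Pfkfb2 (-0.31 ± 0.07, adjusted p = 0.539), Hk1 (0.24 ± 0.07, adjusted p = 0.948) and Pgam2 (0.22 ± 0.08, adjusted p = 0.992). The Esrra counts fitted the labels, with 118 and 136 reads in αKOγKO and 119 and 84 in αKOγWT against 2962 and 3165 in αHetγWT. Reads over the whole Esrrg gene were not lower in γKO libraries, at 3012 and 3461 in αKOγKO and 1174 and 1486 in αHetγKO against 1070 and 1055 in αHetγWT. Such totals cannot reveal a deleted exon and leave the γKO labels unchecked.

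Loss of the last ERRα copy with ERRγ intact gave another pattern, with calls for early steps of glycolysis and for Eno1. In αKOγWT against αHetγWT 4 members were higher and 1 lower, 14.7% of members against 1.23% of all genes (0.743% higher, 0.491% lower). Hk1 measured 142 and 146 RPKM in αKOγWT against 73.2 and 75.6 in αHetγWT (0.96 ± 0.07, adjusted p = 0.00111). Gpi1, the next enzyme, measured 496 and 519 against 313 and 325 (0.68 ± 0.08, adjusted p = 0.00972), and Pfkp 78.9 and 79.3 against 41.0 and 42.4 (0.93 ± 0.15, adjusted p = 0.0228). Eno1 was higher by 0.74 ± 0.10 (adjusted p = 0.0104) and Pfkfb2 lower by -0.67 ± 0.07 (adjusted p = 0.0035), with the RPKM given above. Among later steps, Pgk1 (0.37 ± 0.11), Tpi1 (0.27 ± 0.07), Pgam2 (0.26 ± 0.08), Aldoa (0.20 ± 0.08) and Pkm (0.17 ± 0.07) had positive fold changes that did not pass. Gapdh (0.01), Pgam1 (0.02) and Eno3 (-0.12) did not pass either. For Hk1, Gpi1 and Pfkp the αKOγWT libraries were the highest of all 8.

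With 1 library left out, fewer of these calls passed while the fold changes stayed close. Without αHetγWT replicate 1 or 2 Hk1 alone passed, and over all genes the calls dropped to 14 and 24, against 186 with all libraries. Gpi1 was then at 0.64 and 0.71, Eno1 at 0.70 and 0.78 and Pfkfb2 at -0.69 and -0.66. Without αKOγWT replicate 2, Hk1 and Pfkfb2 passed. Pfkp did not pass without any 1 of the αHetγWT, αHetγKO and αKOγWT libraries, with fold changes of 0.89 to 0.96 on the log2 scale. Without either αKOγKO library, which had the widest spread, Slc2a1, Pygm, Pfkm, Pgk1 and Tpi1 passed in addition. With all libraries Slc2a1 was at 0.79 (adjusted p = 0.0736), Pygm at -0.33 (adjusted p = 0.0856) and Pfkm at -0.29 (adjusted p = 0.202). Pgk1 was then at 0.37 (adjusted p = 0.182) and Tpi1 at 0.27 (adjusted p = 0.142). At an unadjusted p under 0.05 there were 18 members and 2181 of all genes.

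Of the 5 αKOγWT calls, Eno1 and Pfkfb2 were also called in αKOγKO in the same direction. Gpi1 was called there in the opposite direction, and Hk1 and Pfkp were not called. Hk1, at 79.6 and 73.8 RPKM in αKOγKO, was near αHetγWT (73.2 and 75.6), and Gpi1, at 284 and 251, was below it. An interaction term asked whether losing ERRγ mattered more when ERRα was also gone (αKOγKO over αKOγWT, set against αHetγKO over αHetγWT). It was called for 12 members (3 higher, 9 lower), 35.3% against 17.5% of all genes (6.77% higher, 10.7% lower). For Hk1 it was -1.28 ± 0.10 (adjusted p = 9.02e-05), for Gpi1 -1.19 ± 0.12 (adjusted p = 0.000291) and for Pfkp -1.08 ± 0.20 (adjusted p = 0.00798). For Ldhb it was -1.87 ± 0.11. The Ldhb fold changes over αHetγWT were -1.45 ± 0.08 in αKOγKO, 0.16 ± 0.08 in αHetγKO and 0.25 ± 0.08 in αKOγWT. Its levels in αHetγKO (1434 and 1371 RPKM) and αKOγWT (1445 and 1514) lay above αHetγWT, but neither difference passed. Only αKOγKO lay below. For Pfkfb2 the double loss was lower than the sum of both single effects on the log2 scale (-0.67 ± 0.09, adjusted p = 0.00166). Its RPKM were below αHetγWT in every mutant, though the αHetγKO difference was not called. Eno1 (-0.21 ± 0.13, adjusted p = 0.329) and Slc2a1 (0.17 ± 0.23, adjusted p = 0.682) had no call here.

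Ratios within a step put the forms side by side in each library without a reference genotype. Of 10 pairs, 6 had both αKOγKO libraries outside the range of the other 6, all toward the form of fetal, glycolytic or other tissues. The mean log2 ratio in αKOγKO minus that in the other 6 was 4.37 for Slc16a3 over Slc16a1, 2.35 for Ldha over Ldhb, 1.70 for Slc2a1 over Slc2a4, 1.67 for Aldoc over Aldoa, 1.3 for Pygb over Pygm and 1.08 for Pfkl over Pfkm. Each had a two-sided exact permutation p of 0.0714, the smallest that 2 against 6 libraries can give, so no pair can reach 0.05. Both αKOγKO libraries also lay above or below the other 6 in library-scaled reads for 18 of the 34 members (9 above, 9 below), and for 25.3% of all genes in each direction.

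The other 4 pairs overlapped. For Hk1 over Hk2 the αKOγWT libraries were highest (1.39 and 1.78 on the log2 scale, against 0.89 and 1.11 in αKOγKO and 0.43 and 0.50 in αHetγWT). For Pfkp over Pfkm and Eno1 over Eno3 the αKOγKO and αKOγWT libraries overlapped above the rest. For Pgam1 over Pgam2 the αKOγKO libraries lay at -3.46 and -4.23, against -3.05 and -3.35 in αHetγWT, toward the muscle form. Of the pairs with a muscle form, then, phosphoglycerate mutase had the opposite direction, with Pgam2 among the genes called higher.

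**Figure D4:**
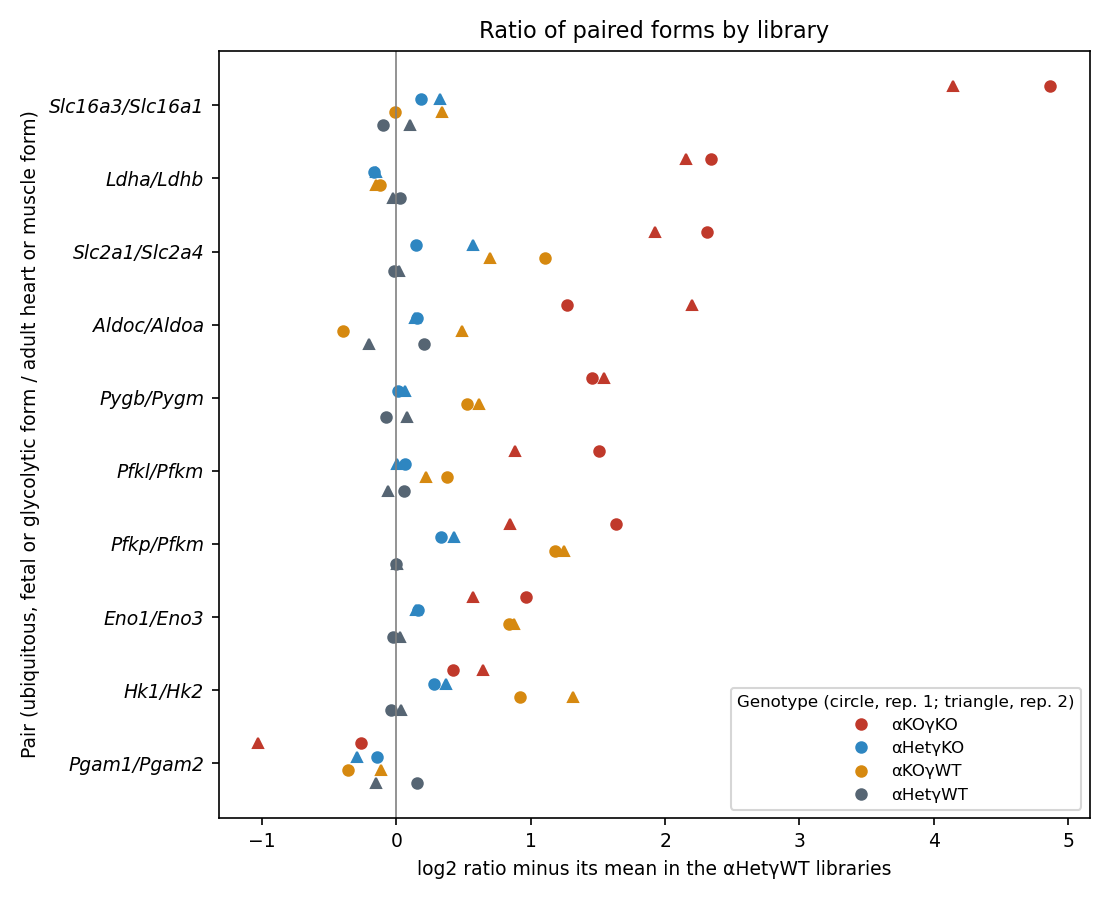
Log2 ratio of 10 pairs of forms in each library, with the mean of the αHetγWT libraries set to 0. Circles are replicate 1 and triangles replicate 2, and genotypes run from αKOγKO at the top of each row to αHetγWT at the bottom. The red αKOγKO points lie apart to the right in the upper 6 rows, the orange αKOγWT points share or exceed their place in the rows of Pfkp, Eno1 and Hk1, and the bottom row, Pgam1 over Pgam2, has red points to the left.

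Side branches had few calls. G6pdx, which opens the pentose phosphate pathway, was at 5.29 and 4.46 RPKM in αKOγKO against 4.92 and 3.75 in αHetγWT (0.05 ± 0.16). Of 13 other genes of the pentose phosphate, polyol and hexosamine branches none was higher in αKOγKO and 2 were lower. That is 15.4% called, against 42.2% of all tested genes. The 2 were Akr1b3, an aldose reductase (36.9 and 36.2 RPKM against 68.7 and 64.2, -0.99 ± 0.09), and Rpia (-0.44 ± 0.14), whose call was lost under 9 alternatives. G6pdx, Pgk1, Phka1 and Pfkfb1 lie on the X chromosome, and Xist, made only by the inactive X of females, had 7142 reads in αKOγKO replicate 1 and 6 to 14 in the other libraries. None of these 4 members was called with all libraries, and the settings under which Phka1 and Pgk1 passed, among them Phka1 without αKOγKO replicate 1, are given above. By Xist, only αKOγKO replicate 1 held RNA of female hearts. A part of sex in the αKOγKO differences, also for genes on other chromosomes, was not tested.

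The genes of the glycerol phosphate shuttle, Gpd1 in the cytosol and Gpd2 in mitochondria, varied widely between replicates. Gpd1 measured 57.1 and 54.0 RPKM in αKOγKO, 71.6 and 42.9 in αHetγKO and 28.1 and 47.2 in αKOγWT, against 82.7 and 48.9 in αHetγWT. The sum of 6 adipocyte markers, which include the brown fat gene Ucp1, had its lowest value in the same library as Gpd1: 119 and 82.8 RPKM in αKOγKO, 143 and 67.2 in αHetγKO and 21.1 and 78.8 in αKOγWT, against 187 and 81.6 in αHetγWT. Gpd2 and Pfkfb1 were also lowest in αKOγWT replicate 1 (3.20 and 0.815 RPKM). The part of fat around the heart in these levels was not tested, and none of the 3 genes passed in any comparison.

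**Figure D5:**
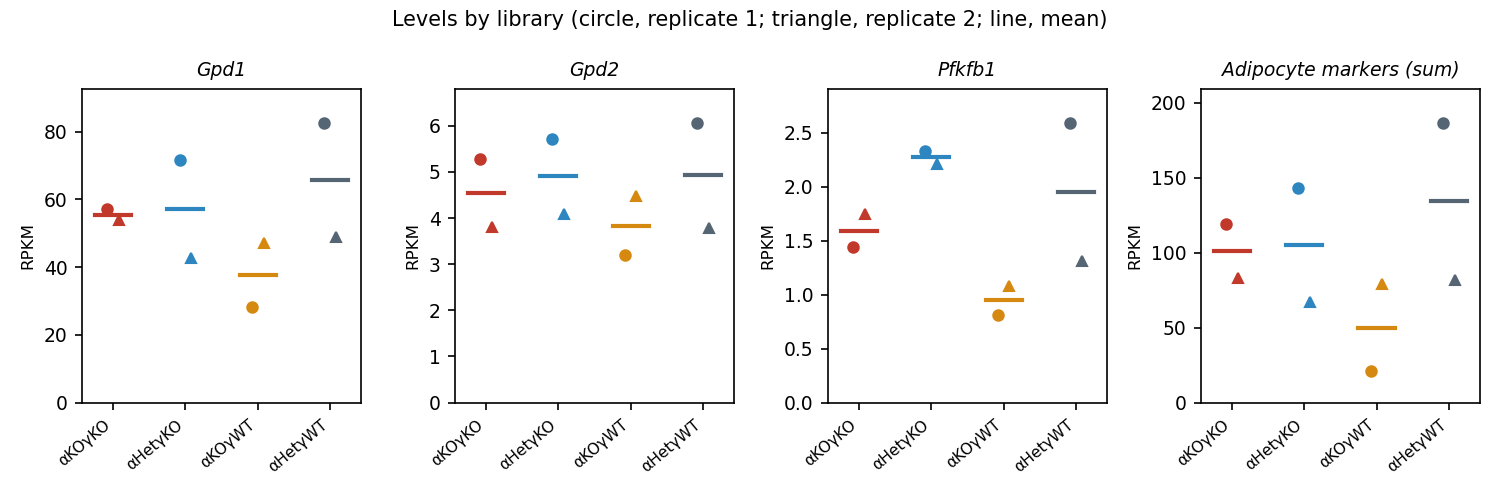
RPKM of Gpd1, Gpd2 and Pfkfb1 and the summed RPKM of 6 adipocyte markers by library. Circles are replicate 1, triangles replicate 2, lines the mean, and each axis starts at 0. αKOγWT replicate 1 is lowest in all 4 panels, and αHetγWT replicate 1 is highest.

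Pyruvate, the product of the pathway, enters mitochondria through the carrier Mpc1 and Mpc2 and is oxidised by pyruvate dehydrogenase. Of 16 tested genes of lactate and pyruvate fate, 10 were lower in αKOγKO and 3 higher, 81.25% against 42.2% of all tested genes. The median log2 fold change of the 16 genes was -1.34. Mpc2 measured 80.0 and 80.0 RPKM in αKOγKO against 316 and 279 in αHetγWT (-2.02 ± 0.08), Mpc1 170 and 172 against 424 and 389 (-1.37 ± 0.07), and Dlat, a pyruvate dehydrogenase subunit, 38.0 and 32.8 against 128 and 113 (-1.89 ± 0.10). Pdhb, another subunit, was lower by -1.40 ± 0.07. No gene of this list was called in αHetγKO or αKOγWT.

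Among 13 other tested glycolytic genes, 4 were higher in αKOγKO and 3 lower, 53.8% against 42.2% of all tested genes. Eno2, the neuronal enolase, measured 4.44 and 3.83 RPKM in αKOγKO against 0.67 and 0.97 in αHetγWT (2.20 ± 0.22). Fbp2, the muscle enzyme that runs the phosphofructokinase step backward, was lower, at 5.73 and 8.93 against 34.2 and 35.3 (-2.37 ± 0.16), and so was Ldhd, a dehydrogenase of D-lactate (-1.13 ± 0.11). The sum of Hk1 and Hk2 was 123 and 108 RPKM in αKOγKO against 128 and 129 in αHetγWT.

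Of 14 tested transcription factors and regulators linked to glycolytic genes, 2 were higher in αKOγKO and 5 lower. That is 50% called, against 42.2% of all tested genes. Hif1a, the hypoxia-inducible factor subunit, measured 80.4 and 78.9 RPKM in αKOγKO, 20.8 and 24.9 in αHetγKO and 26.1 and 23.8 in αKOγWT, against 21.3 and 21.99 in αHetγWT (1.76 ± 0.09). Its relative Epas1 was lower (56.9 and 49.4 RPKM in αKOγKO against 93.4 and 95.1 in αHetγWT, -0.95 ± 0.08). Klf15 (-1.05 ± 0.13), a factor of metabolic genes that can raise Slc2a4, and Mlxip (-0.75 ± 0.08), a glucose-sensing factor, were also lower. None of these genes was called in αHetγKO or αKOγWT. By the interaction, Hif1a (1.48), Gyg (1.01), Gaa (1.13), Eno2 (1.85) and Slc2a10 (1.21) were higher and Mpc2 (-1.67), Dlat (-1.67), Pdhb (-1.43), Got1 (-2.03), Slc2a12 (-2.22), Fbp2 (-2.31), Klf15 (-0.99) and Epas1 (-0.72) lower, all on the log2 scale.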

How the data were processed

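Heart RNA of 4 genotypes (2 libraries each, 16 days) was sequenced paired-end after TruSeq preparation. The authors deposited, per library, uniquely assigned read counts per gene, gene length, RPKM and a coverage score on genome build mm10. The aligner and counter are not given in the sources used here. The deposited counts are whole numbers. The deposited RPKM values could be recomputed from count, length and library total. The coverage score was deposited by the authors without a definition and was not used. Genes that a table does not list were given 0 reads.

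Counts were compared with edgeR 4.0.16 (R 4.3.3): filterByExpr (minimum count 10, total 15; 15076 of 18656 genes kept), TMM scaling, 1 mean per genotype over 8 libraries (4 residual degrees of freedom), quasi-likelihood F tests and Benjamini-Hochberg adjustment with a threshold of 0.05. The SE is the log2 fold change divided by the square root of F. RPKM are not TMM-scaled (factors 1.05 and 1.08 in αKOγKO, 0.966 to 0.997 elsewhere), so small RPKM differences can vanish in the fold changes. Paired forms were compared by log2 ratios of RPKM + 0.1, with an exact permutation test (scipy 1.17.1). Members and lists were chosen with earlier results of these data known. All 34 members are named, and from each other list the called genes of lowest adjusted p, at most 4 per comparison; Eno1b was added after its values were seen. Some genes of the other lists are not reported here. Promoters come from RefSeq (GRCm38.p6). Alternatives were DESeq2 1.42.0 size factors and Wald test, upper-quartile factors, limma 3.58.1 on log2(RPKM + 1), no filter, a replicate block, αKOγKO and αHetγWT alone, the mean of the other genotypes, and each library left out, when its genotype's lone library is assumed to vary like the others. The fits of αKOγKO against αHetγWT were tested on simulated counts with the same spread for every gene and library. The interaction, the ratios and the promoter counts were not tested in that way. Python 3.11.15, pandas 2.3.3, numpy 2.4.6 and matplotlib 3.10.9 were used.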

Additional observations from a re-analysis of the deposited data

Results flagged for a closer look

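For 12 members the fold change of αKOγKO over αKOγWT differed from that of αHetγKO over αHetγWT by the edgeR interaction term at an adjusted p under 0.05. The differences, in log2, were 4.32 for Slc16a3, 0.68 for Ldha and 0.67 for Gbe1, where ERRγ loss went with a higher level in αKO hearts. They were -1.87 for Ldhb, -1.28 for Hk1, -1.19 for Gpi1, -1.08 for Pfkp, -0.94 for Pygm, -0.91 for Gys1, -0.75 for Pfkm, -0.69 for Slc2a4 and -0.67 for Pfkfb2. For Hk1, Gpi1 and Pfkp the αKOγWT level was high. In αKOγKO the level of Hk1 was near that of αHetγWT and that of Gpi1 below it, and Pfkp was at 58.7 and 41.3 RPKM in αKOγKO against 41.0 and 42.4 in αHetγWT. Ldhb, Pygm, Pfkm and Slc2a4 were lower in αKOγKO than in the other 3 genotypes. The Gys1 value was near the threshold (adjusted p = 0.0447). It did not pass with upper-quartile factors (-0.87), with limma (-0.81) or without either library of αHetγWT, αHetγKO or αKOγWT, and Gbe1 did not pass without αHetγKO replicate 2 (0.61, adjusted p = 0.0543).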

How the results depend on the processing

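No called member changed direction under any alternative. For αKOγKO, 19 to 22 members were called under the alternatives that kept all libraries and 13 to 22 with 1 library left out; for αHetγKO the range was 0 to 0, for the interaction 10 to 16, and for pairs of forms outside the range of the others 6 to 8. For αKOγWT the 5 calls became 8 with the DESeq2 Wald test, which added Slc2a1, Pgk1 and Pygm, and ranged from 1 to 10 with 1 library left out, lowest without either αHetγWT library (1) and highest without either αKOγKO library (10). With only αHetγWT as reference, all 10 pairs of forms were outside its range, where the smallest exact p is 0.333. The replicate numbers did not pair the libraries (correlations of deviations between genotypes -0.18 to 0.09). With a replicate block 20, 0, 5 and 13 members were called in αKOγKO, αHetγKO, αKOγWT and the interaction. A block with crossed αKOγWT numbers, chosen after seeing the data, gave 5 members in αKOγWT. Precision is limited by 2 pooled libraries per genotype, which differed most in αKOγKO, and for low genes such as Aldoc by few reads.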
